A study of Homo sapiens with 6 samples.

Results

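The SOCS family was followed in MDA-MB-231 cells, an established line of human triple-negative breast cancer (classed as lacking oestrogen, progesterone and HER2 receptors), after NCD treatment. The 8 members, CISH and SOCS1 to SOCS7, were matched by symbol to Ensembl identifiers and are 8 of the 63241 identifiers in the count files. Cells received 5 μM NCD (nitidine chloride, a plant alkaloid) or 0.1% DMSO for 24 h, and 3 libraries of total RNA were sequenced for each of the 2 groups. The genotype is given as wild type, and the vehicle of the NCD libraries is not stated in the labels. Free-text notes of NCD replicates 2 and 3 name other cell line numbers, whereas their cell line field gives MDA-MB-231.

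SOCS proteins are the classical feedback inhibitors of cytokine signalling. A cytokine receptor activates JAK kinases, which phosphorylate STAT transcription factors, and STATs in turn induce several SOCS genes. Each SOCS protein carries an SH2 domain, which binds phosphorylated tyrosines, and a SOCS box, which recruits elongins and CUL5 to mark bound proteins for degradation. SOCS1 and SOCS3 can also block JAK kinases directly, while CISH and SOCS2 mainly occupy receptor tails. SOCS4 to SOCS7 have longer N-terminal regions and are known mostly from receptor tyrosine kinase signalling. SOCS proteins limit interferon and IL-6 responses in tumour cells as well as in immune cells.

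Library totals ran from 18223554 to 19410782 counts in the DMSO group and from 18232123 to 21629618 in the NCD group. VIM, the mesenchymal filament gene typical of this line, had 2488 to 3152 CPM (counts relative to library size, scaled by edgeR's TMM factors), and ESR1 and PGR had at most 7 and 3 counts, while ERBB2 (HER2) had 35.1 to 62.5 CPM. SPARC, also listed for this line, stayed at or below 0.785 CPM. Of 10 leukocyte markers 4 were at 0 in every library, CD3D, CD3E and PTPRC had at most 1 count, and the summed level of the list was 114 to 129 CPM with DMSO and 113 to 122 CPM with NCD, carried by CD68 and HLA-DRA. Summed levels of other lists moved with treatment, from 417 to 476 CPM with DMSO to 570 to 680 CPM with NCD for luminal epithelium, where KRT8 was highest, and from 6198 to 6475 CPM to 4173 to 4528 CPM for the mesenchymal list. Their part in the results was not tested. DMSO replicate 2 and NCD replicate 3 stood furthest from the other libraries of their groups. A chi-square over genes, divided by its degrees of freedom, was 14.4 and 12.9 between NCD replicate 3 and the others but 2.05 between NCD replicates 1 and 2, and 15.4 and 7.88 for DMSO replicate 2 against 4.17 between DMSO replicates 1 and 3. No source states that the libraries are separate cultures. The p-values set the group difference against the spread between these libraries, and may not speak for repeated treatments.

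NCD treatment raised SOCS1 and SOCS7 past the thresholds used, which are 0.05 for the adjusted p and 1 for the size of the log2 fold change, and no member fell past both. SOCS3 fell by less than the fold threshold. CISH was too low to be tested, and SOCS2, SOCS4, SOCS5 and SOCS6 did not pass the adjusted p. Thus 2 of the 7 tested members were called, while among all 15295 tested genes 31.0% were called, 13.5% as higher and 17.5% as lower. By the adjusted p with no fold threshold, called genes included, 2 of the 7 were higher and 1 lower, beside 35.3% and 34.1% of all tested genes (69.3% in either direction). Values of the groups did not overlap for 2 that were higher and 1 that was lower, beside 37.2% and 35.3% of all tested genes (72.6% in either direction). In either direction the members were not called more often than all tested genes by any of these rules. SOCS1 must be read apart in these counts, because only 1 DMSO library was above the level of 0.526 CPM (by library totals, without TMM factors) that the filter asks for, against 3 NCD libraries, and a gene that enters through its higher group had to differ. In bulk RNA, more cells expressing a gene and more RNA per cell cannot be told apart.

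**Figure D1:**
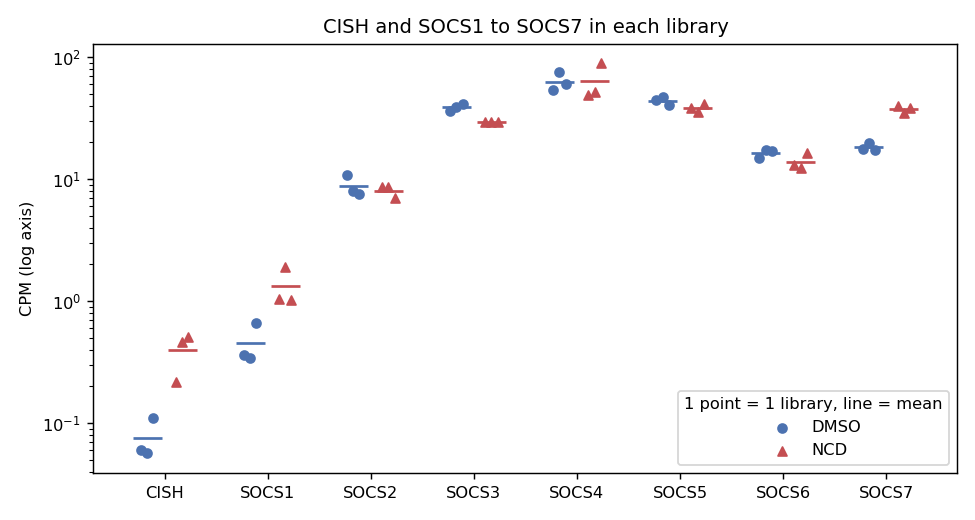
CPM of each member in each library on a log axis, with circles for DMSO, triangles for NCD and a line at each group mean of 3 libraries. CISH, SOCS1 and SOCS7 lie wholly higher with NCD and SOCS3 wholly lower, while NCD replicate 3 stands out for SOCS4 at 88.4 CPM.

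**Figure D2:**
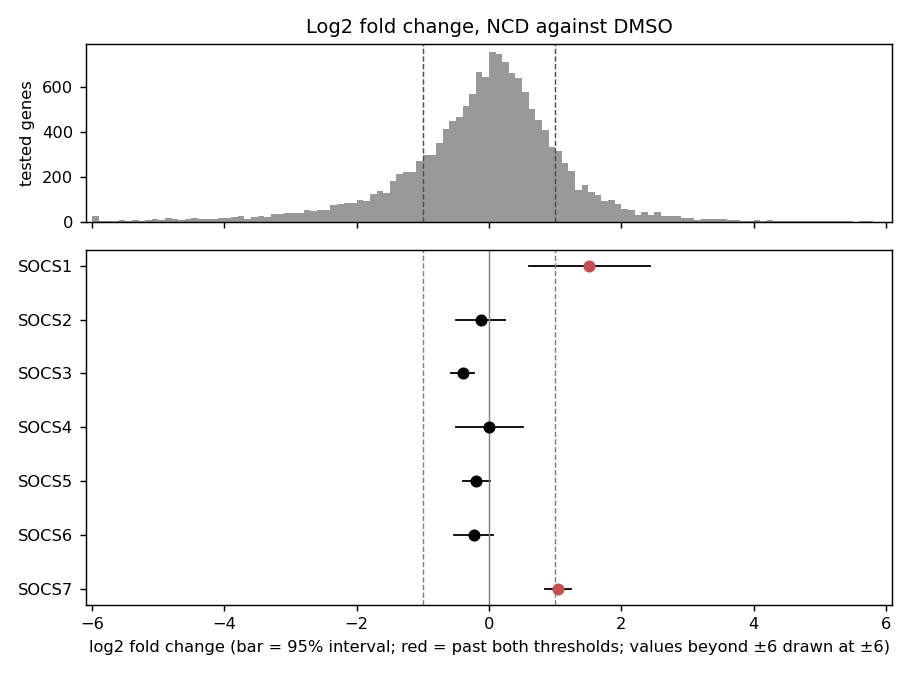
Lower panel: log2 fold change of the 7 tested members (x axis) with 95% intervals, red where both thresholds were passed; upper panel: the number of tested genes at each log2 fold change. SOCS1 at 1.52 and SOCS7 at 1.04 lie right of the dashed line at 1, and the other 5 lie between -0.40 and 0.01.

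SOCS7, an adaptor-type member that binds NCK and insulin receptor substrates, gave the firmest change. SOCS7 (ENSG00000274211) lies at chr17:38352228-38405593 on the plus strand (all gene positions are from GENCODE 29 on GRCh38). Its CPM was 17.7, 19.7 and 17.4 under DMSO and 39.4, 35.0 and 38.5 under NCD. Every NCD library was above every DMSO library, and the gap was much wider than the spread within either group. The mean was 18.2 ± 1.25 CPM under DMSO and 37.6 ± 2.28 CPM under NCD (SD, n = 3), which is 2.06-fold higher. The log2 fold change was 1.04 with a standard error of 0.09 and a 95% interval of 0.85 to 1.24 (edgeR adjusted p = 6.11e-06), higher than that of 87.2% of all tested genes. The estimate sits at the fold threshold: it was 0.997 without DMSO replicate 1, 0.979 without DMSO replicate 3 and 0.987 without NCD replicate 1, each just under 1, and the highest adjusted p over all 14 alternatives with a test was 0.000153. No annotated gene overlaps SOCS7.

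SOCS7 was also set against SOCS6 and SOCS3 within each library, a comparison that does not rest on library scaling. SOCS7 counts were 1.20, 1.14 and 1.03 times those of SOCS6 under DMSO and 3.05, 2.86 and 2.33 times under NCD. Against SOCS3 the ratio was 0.492, 0.506 and 0.425 with DMSO and 1.34, 1.20 and 1.32 with NCD. SOCS7 thus had fewer counts than SOCS3 in every DMSO library and more in every NCD library. Counts are not levels per length, and SOCS3 itself was lower with NCD. Per kb of exon SOCS3 stayed above SOCS7 with NCD, at 10.7 against 4.36 CPM. These pairs were picked after the values were seen. An exact permutation test gave p = 0.1 for each, the smallest value that 3 libraries against 3 can give, so it cannot decide. The ratios of SOCS5 over SOCS4 and of SOCS3 over SOCS5 were computed as well (exact permutation test, p = 0.6 and 0.2).

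The tested genes with the pattern most like SOCS7 were ZNF222, OAS3 and CCDC106, at Euclidean distances of 0.0956, 0.106 and 0.107 between centred log2 CPM profiles over the 6 libraries. ZNF222, a zinc finger gene, rose from 4.81 ± 0.337 to 10.3 ± 0.326 CPM (SD, n = 3). OAS3, an interferon-induced synthetase, rose from 23.7 ± 2.31 to 50.5 ± 2.71 CPM (SD, n = 3). CCDC106 rose from 8.16 ± 0.523 to 16.3 ± 0.677 CPM (SD, n = 3). Their log2 fold changes of 1.10, 1.09 and 1.00 are close to that of SOCS7 by the way they were chosen.

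SOCS1, the interferon-induced JAK inhibitor, had the largest log2 fold change among the tested members at a very low level. SOCS1 (ENSG00000185338; chr16:11254405-11256200, minus strand) was counted 6, 6 and 12 times under DMSO and 24, 37 and 22 times under NCD. The groups did not overlap, although DMSO replicate 3 held as many counts as both other DMSO libraries together. In CPM the values were 0.361, 0.339 and 0.657 with DMSO and 1.05, 1.91 and 1.02 with NCD. The means of 0.452 ± 0.178 and 1.33 ± 0.506 CPM (SD, n = 3) gave a ratio of 2.94. The log2 fold change was 1.52 with a standard error of 0.41 and a 95% interval of 0.60 to 2.44 (edgeR adjusted p = 0.00846). Its size is poorly fixed, ranging from 1.18 without NCD replicate 2 to 1.86 without DMSO replicate 3. The adjusted p stayed between 0.000778 and 0.0361 over the 13 alternatives that tested SOCS1, and SOCS1 was left out where every library had to hold 10 counts.

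SOCS1 lies within the span of RMI2, a gene of the opposite strand that acts in the dissolution of DNA recombination intermediates, and shares 0 exon bases with it. RMI2 rose too, from 12.0 ± 0.228 to 17.8 ± 2.18 CPM (SD, n = 3), by 0.57 on the log2 scale (standard error 0.11, edgeR adjusted p = 0.00143), which is under the fold threshold. The strandedness of the counting is not given in the sources used here, and the part of RMI2 reads in the SOCS1 counts was not tested.

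CISH, the member induced by STAT5 through sites in its promoter, was the lowest of the family. CISH (ENSG00000114737; chr3:50606490-50611831, minus strand) was counted 1, 1 and 2 times under DMSO and 5, 9 and 11 times under NCD. No NCD library was as low as any DMSO library, but only 1 of the 6 libraries, an NCD library, exceeded the filter level, which the filter reads in counts scaled by library totals without TMM factors. Mean CPM was 0.0754 ± 0.0296 under DMSO and 0.398 ± 0.158 under NCD (SD, n = 3). The summed counts of 4 and 25 give a ratio of 5.16 after scaling to library size, with an exact 95% interval of 1.78 to 20.4 that covers counting error only. CISH entered no test. Of the 5112 exon bases of CISH, 218 (4.26%) are shared with MAPKAPK3 on the opposite strand, a kinase gene with means of 85.1 ± 6.38 and 61.8 ± 3.77 CPM (SD, n = 3). MAPKAPK3 fell by 0.46 on the log2 scale (standard error 0.08, edgeR adjusted p = 0.000614) while the CISH counts were higher with NCD. Whether MAPKAPK3 reads contribute to the CISH counts was not tested.

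Promoter sequence was available for 5 of the 8 members (CISH, SOCS1, SOCS3, SOCS4 and SOCS6), from RefSeq on GRCh38.p14, and the 250 bases before each gene start were searched on both strands. The sequences of CISH and SOCS1 are shown because they were the lowest members with DMSO and have the clearest matches to cytokine-response motifs. Capitals mark matches to TTCNNNGAA, the letters STAT dimers prefer, in CISH (chr3:50611775-50612024, minus strand) and to the core of the interferon-stimulated response element (GAAA, any 2 bases, GAAA) in SOCS1 (chr16:11256205-11256454, minus strand).
CISH: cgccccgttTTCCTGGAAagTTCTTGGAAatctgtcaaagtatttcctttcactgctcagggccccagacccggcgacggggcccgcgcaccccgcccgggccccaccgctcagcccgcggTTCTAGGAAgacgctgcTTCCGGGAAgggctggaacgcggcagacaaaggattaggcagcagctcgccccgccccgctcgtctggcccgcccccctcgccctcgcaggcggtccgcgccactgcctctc
SOCS1: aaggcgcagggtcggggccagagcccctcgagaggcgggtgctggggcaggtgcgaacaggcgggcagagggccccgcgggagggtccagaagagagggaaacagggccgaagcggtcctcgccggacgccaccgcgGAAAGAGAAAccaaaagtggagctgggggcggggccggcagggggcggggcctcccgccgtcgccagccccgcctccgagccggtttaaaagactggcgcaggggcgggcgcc

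The CISH window holds 4 matches, TTCCTGGAA, TTCTTGGAA, TTCTAGGAA and TTCCGGGAA, which begin 241, 230, 129 and 112 bases before the start. At least 1 match occurs in 6.56% of the 34943 promoters of the table, at least 2 in 0.358% and at least 4 in 5 promoters (0.0143%). The single SOCS1 match, GAAAGAGAAA, begins 113 bases before the start, and 3.02% of all promoters hold this motif. The windows of SOCS3, SOCS4 and SOCS6 hold neither motif. For SOCS3 the RefSeq start lies 848 bases from the start in GENCODE 29, so that window is not the one next to the GENCODE start. The STAT6-type site (TTC, any 4 bases, GAA), found in 5.39% of promoters, and TATAAA, found in 10.8%, are in none of the 5 windows. The kappa B core (GGG, any 5 bases, CC), found in 54.4%, is in all 5. GC content of the windows was 68.8% for CISH, 74.0% for SOCS1, 62.8% for SOCS3, 70.0% for SOCS4 and 82.0% for SOCS6, with a median of 58.0% over all promoters. A match describes letters only and says nothing of binding in these cells.

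SOCS3, the STAT3-induced inhibitor of IL6ST receptor signalling, went the other way. SOCS3 (ENSG00000184557; chr17:78356778-78360077, minus strand) had 35.9, 38.9 and 40.8 CPM under DMSO and 29.5, 29.1 and 29.1 CPM under NCD. All 3 NCD libraries were below all 3 DMSO libraries and lay very close together. Mean expression fell from 38.5 ± 2.47 to 29.2 ± 0.193 CPM (SD, n = 3). The log2 fold change was -0.40 with a standard error of 0.08 and a 95% interval of -0.57 to -0.23 (edgeR adjusted p = 0.00119), so it passed the adjusted p but not the fold threshold. It kept its sign and an adjusted p below 0.05 in all 14 alternatives with a test, and was smallest at -0.20 (edgeR adjusted p = 0.0488) when libraries were scaled by their totals.

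SOCS2, a negative regulator of growth hormone signalling, did not pass the adjusted p. SOCS2 (ENSG00000120833; chr12:93569814-93583487, plus strand) had 10.8, 7.91 and 7.56 CPM with DMSO and 8.55, 8.53 and 6.94 CPM with NCD. The groups overlapped, and DMSO replicate 1 was the highest library. The log2 fold change was -0.13 (standard error 0.16, 95% interval -0.50 to 0.25, edgeR adjusted p = 0.513), and its sign turned without DMSO replicate 1, to 0.02. SOCS2 shares 277 exon bases (4.09%) with SOCS2-AS1 on the opposite strand, which had at most 10 counts in any library.

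SOCS4, SOCS5 and SOCS6, members known from receptor tyrosine kinase signalling, shared a pattern among libraries of the same group. Each was highest, within its group, in DMSO replicate 2 and in NCD replicate 3, the libraries that stand apart. What sets these libraries apart was not tested.

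SOCS4, linked to EGFR turnover together with SOCS5, varied more between libraries than SOCS5 or SOCS6. SOCS4 (ENSG00000180008; chr14:55027230-55049488, plus strand) had 53.1, 75.6 and 59.8 CPM with DMSO and 49.0, 52.0 and 88.4 CPM with NCD. NCD replicate 3 was above every other library, and the other NCD libraries were below every DMSO library. With all libraries the means were 62.8 ± 11.5 and 63.1 ± 21.9 CPM (SD, n = 3), with a log2 fold change of 0.01 (standard error 0.22, 95% interval -0.50 to 0.51, edgeR adjusted p = 0.983). Without NCD replicate 3 the log2 fold change was -0.33 (edgeR adjusted p = 0.0441), and without both libraries that stand apart it was -0.17 (edgeR adjusted p = 0.0395). A value for SOCS4 therefore depends on NCD replicate 3.

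SOCS5 (ENSG00000171150; chr2:46698952-46780245, plus strand) had 44.1, 46.6 and 40.4 CPM with DMSO and 38.2, 35.1 and 41.4 CPM with NCD. The groups overlapped through NCD replicate 3 and DMSO replicate 3. The log2 fold change was -0.19 (standard error 0.09, 95% interval -0.39 to 0.01, edgeR adjusted p = 0.0798). It was -0.27 without NCD replicate 3 (edgeR adjusted p = 0.0191), -0.28 without DMSO replicate 3 (edgeR adjusted p = 0.0400) and -0.21 without both libraries that stand apart (edgeR adjusted p = 0.0236). The exons of SOCS5 share 160 bases (2.11%) with LINC01118, which had 0 counts in every library, and its pseudogene SOCS5P4 had at most 7.

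SOCS6, which binds KIT and insulin signalling proteins, had a like pattern at a lower level. SOCS6 (ENSG00000170677; chr18:70288901-70330200, plus strand) had 14.8, 17.2 and 16.9 CPM with DMSO and 12.9, 12.2 and 16.5 CPM with NCD. NCD replicates 1 and 2 were below every DMSO library, and NCD replicate 3 was not. The log2 fold change was -0.23 (standard error 0.13, 95% interval -0.53 to 0.07, edgeR adjusted p = 0.142). It was -0.39 without NCD replicate 3 (edgeR adjusted p = 0.00912) and -0.34 without both libraries that stand apart (edgeR adjusted p = 0.0164). The count of called members was 2 both with all libraries and without those 2.

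Levels of different members can be compared only per length, here as CPM per kb of merged exons. With DMSO the order was SOCS3 (14.1 ± 0.904), SOCS4 (8.92 ± 1.63), SOCS5 (5.75 ± 0.412), SOCS6 (2.72 ± 0.217), SOCS7 (2.12 ± 0.145), SOCS2 (1.29 ± 0.260), SOCS1 (0.252 ± 0.0988) and CISH (0.0147 ± 0.00579; SD, n = 3 for each). No neighbours in this order had overlapping values. With NCD SOCS3 stayed highest at 10.7 ± 0.0707 CPM per kb, SOCS4 had 8.96 ± 3.11, SOCS5 5.03 ± 0.418, SOCS7 4.36 ± 0.265, SOCS6 2.32 ± 0.381, SOCS2 1.18 ± 0.136, SOCS1 0.739 ± 0.282 and CISH 0.0779 ± 0.0309 (SD, n = 3 for each). SOCS7 moved above SOCS6, and SOCS1 reached the range of SOCS2. SOCS3 and SOCS4 overlapped with NCD, as did SOCS2 and SOCS1. Dividing by the longest transcript instead gave SOCS2 2.34 and SOCS7 2.32 CPM per kb with DMSO, so SOCS2 and SOCS7 changed places in that group only. With that length SOCS4 had 9.27 ± 1.70 and SOCS5 9.16 ± 0.656 CPM per kb with DMSO (SD, n = 3). The gap between SOCS4 and SOCS5 with DMSO thus depended on the length used.

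**Figure D3:**
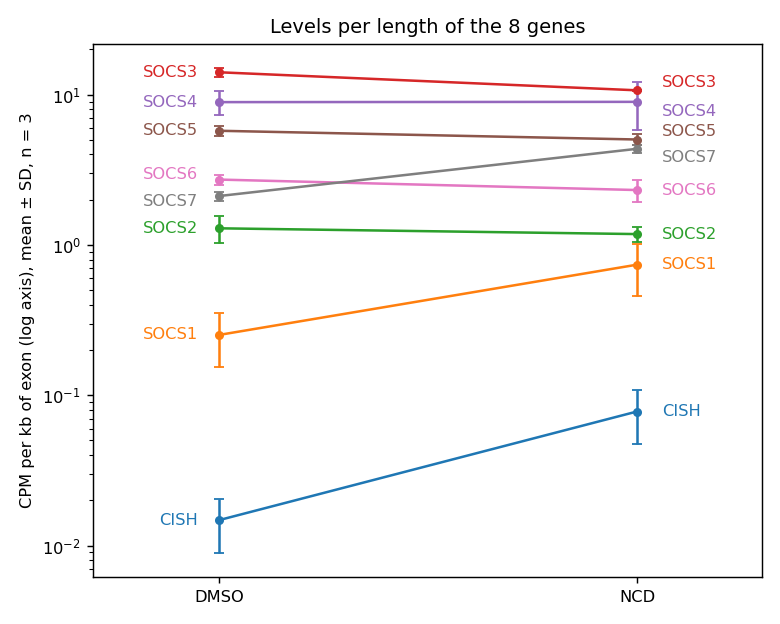
Mean CPM per kb of merged exons (log axis, bars are SD over 3 libraries) of the 8 members with DMSO and with NCD, joined by lines. SOCS7 crosses SOCS6 between the groups, and CISH stays lowest at 0.0147 and 0.0779 CPM per kb.

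The change with NCD moved with gene span across all tested genes, which sets a background for each member. Tested genes were divided by span into 10 groups of like size. SOCS1 and SOCS3 belong to the shortest group (0.069 to 3.71 kb), with a median log2 fold change of 0.24, and they lay on opposite sides of it. SOCS2 (13.7 kb) and SOCS4 (22.3 kb) belong to groups with medians of 0.43 and 0.32, and both members were lower than that. SOCS6 (41.3 kb) and SOCS7 (53.4 kb) share a group (41.2 to 58.9 kb) with a median of -0.03, in which 8.85% of genes were called higher and 7.56% lower. SOCS7 is among the former. SOCS5, the longest member at 81.3 kb, lay at -0.19 in a group with a median of -0.35, of which 15.6% were called lower. The part of gene span in the members' values was not tested.

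**Figure D4:**
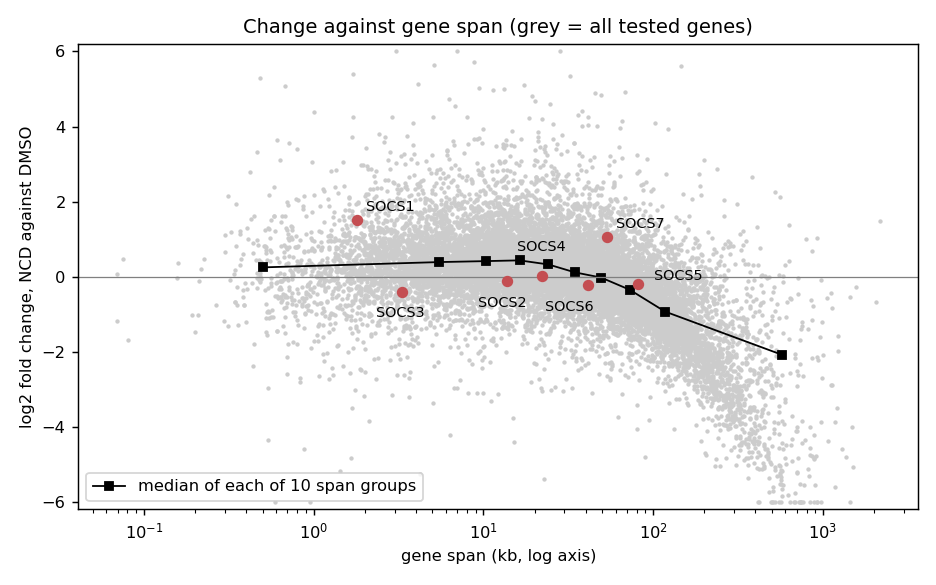
Log2 fold change against gene span (log axis) for all tested genes in grey and the 7 tested members in red; black squares are the median of each of the 10 span groups, drawn at the geometric middle of its limits, and values beyond 6 are drawn at 6. SOCS7 at 53.4 kb lies above the median of its group of -0.03.

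The other genes of the pathway were taken from 8 lists, which hold 169 genes when each is counted once, and 117 of these were tested. With NCD 32 were called higher (27.4%) and 23 lower (19.7%), beside 13.5% and 17.5% of all tested genes. Of those called higher 4, and of those called lower 1, were below the filter level in a library of their lower group. The median log2 fold change over these genes was 0.21, beside 0.04 over all tested genes. Below, called means past both thresholds, and passing the adjusted p alone means past it but not called. Numbers that passed the adjusted p alone thus leave out the called genes and are not to be set beside the 69.3% given above. Of all tested genes, 69.3% passed the adjusted p with called genes included, and 31.0% were called. The matching share is the part of the 69.3% that lies outside the 31.0%. No list was tested against that share. Genes that complete a count of 5 or fewer, and the rest of the JAK kinases and ligase partners, were named after their values were seen. The same holds for the receptor kinases and docking proteins past the adjusted p alone.

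Among the JAK kinases, which SOCS1 and SOCS3 inhibit, 2 of 3 tested were called lower and 1 passed the adjusted p alone. JAK2 fell from 7.10 ± 1.49 to 2.33 ± 0.180 CPM (SD, n = 3), a log2 fold change of -1.61 (standard error 0.19, edgeR adjusted p = 6.2e-05). JAK1 fell from 146 ± 11.4 to 66.2 ± 4.40 CPM (SD, n = 3), a log2 fold change of -1.15 (standard error 0.08, edgeR adjusted p = 1.77e-06) that was -0.95 with library totals. Both are long genes, of 144 and 133 kb, in a span group with a median of -0.93, of which 46.0% were called lower. TYK2 had a log2 fold change of 0.28 (edgeR adjusted p = 0.0163), under the fold threshold, and JAK3 had too few counts to be tested.

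Of the 7 STAT genes 2 were called higher and none lower, and 2 passed the adjusted p alone. STAT2, a factor of type I interferon signalling, rose from 41.4 ± 5.52 to 121 ± 8.14 CPM (SD, n = 3), a log2 fold change of 1.55 (edgeR adjusted p = 1.24e-06), and STAT5A had a log2 fold change of 1.16. STAT3, the main inducer of SOCS3, had a log2 fold change of 0.00 (standard error 0.06, edgeR adjusted p = 0.959), which was 0.20 (edgeR adjusted p = 0.0114) with library totals.

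Of the 40 cytokines 14 were tested, 8 were called higher and 1, CSF2, lower, with a log2 fold change of -2.17, 3 passed the adjusted p alone, and 18 had no count in any library. IL6, the inflammatory cytokine whose receptor SOCS3 restrains, rose from 4.32 ± 0.625 to 43.6 ± 2.60 CPM (SD, n = 3), a log2 fold change of 3.34 (edgeR adjusted p = 4.23e-08). The IL6 level was higher in every NCD library while SOCS3 was lower in every NCD library. Of 25 tested receptor chains 7 were called higher and 2, LEPR and PRLR, lower, and 13 passed the adjusted p alone. CSF2RA, a GM-CSF receptor chain, had a log2 fold change of 1.16 (0.94 without both libraries that stand apart), and the leptin receptor LEPR, of 221 kb, had one of -2.08. LEPR lies in the longest span group, whose median was -2.09 and of which 79.2% were called lower.

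Of the genes known as STAT targets other than the SOCS family, 12 of 26 tested were called higher and 2, HIF1A and BCL2L1, lower, and 11 passed the adjusted p alone. ISG15, a ubiquitin-like protein induced by interferon, rose from 14.1 ± 1.72 to 120 ± 23.7 CPM (SD, n = 3), a log2 fold change of 3.08 (edgeR adjusted p = 3.61e-07). HIF1A, the hypoxia factor, fell from 317 ± 32.7 to 107 ± 26.6 CPM (SD, n = 3), a log2 fold change of -1.57 (edgeR adjusted p = 2.13e-05). The median over the 26 tested genes was 0.87.

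Downstream of the SOCS box, 3 of the 10 tested ligase partners were called lower and none higher, and 3 passed the adjusted p alone. CUL5, the cullin that SOCS boxes recruit, fell from 77.4 ± 13.5 to 23.3 ± 6.12 CPM (SD, n = 3), a log2 fold change of -1.73 (standard error 0.19, edgeR adjusted p = 3.34e-05). CUL2, the cullin of the related VHL ligase, and UBE2F, the NEDD8-conjugating enzyme that acts on CUL5, had log2 fold changes of -1.07 and -1.02. The partners past the adjusted p alone were ARIH2, a ubiquitin ligase that works with CUL5, at -0.77 (edgeR adjusted p = 8.3e-06), UBE2M, a NEDD8-conjugating enzyme, at 0.48 (edgeR adjusted p = 0.000154), and RBX1, a RING subunit of cullin ligases, at -0.30 (edgeR adjusted p = 0.0493). The elongins ELOB and ELOC, which link the SOCS box to the cullin, had values of 0.20 and -0.22 (edgeR adjusted p = 0.192 and 0.0917), and RNF7, the RING subunit paired with CUL5, had 0.18 (edgeR adjusted p = 0.101). NEDD8, the modifier that activates cullins, had -0.33 (edgeR adjusted p = 0.0577). CUL5 spans 99.0 kb, in the span group with a median of -0.93, of which 46.0% were called lower.

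Among the genes listed as other negative regulators of the pathway 3 of 17 tested were called higher (USP18, PTPN6 and CDKN1A). Another 5 were called lower (PIAS1, PIAS2, PTPN1, CBLB and NR3C1), and 6 passed the adjusted p alone. USP18, which removes ISG15 and dampens interferon receptor signalling, rose from 4.23 ± 0.461 to 12.1 ± 1.71 CPM (SD, n = 3), a log2 fold change of 1.52 (edgeR adjusted p = 1.71e-05). PTPN6, a phosphatase of blood cell signalling, was counted 6 times in each DMSO library and 51, 34 and 28 times under NCD. PIAS2, a SUMO ligase that restrains STATs, fell from 15.8 ± 2.62 to 3.96 ± 1.17 CPM (SD, n = 3), a log2 fold change of -1.99 (edgeR adjusted p = 2.6e-05). PIAS2 spans 117 kb, in the span group with a median of -0.93, of which 46.0% were called lower. CDKN1A is best known as a cell cycle inhibitor and NR3C1 as the glucocorticoid receptor. The counts of 3 and 5 thus include genes not chiefly known as inhibitors of this pathway.

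Of the receptor kinases and docking proteins that SOCS proteins bind, 8 of 15 tested were called lower and none higher. Over all tested genes 17.5% were called lower and 13.5% higher. Another 6 passed the adjusted p alone, and the median over the list was -1.08. Of those 6, ERBB2 (log2 fold change 0.71), IRS2 (0.53) and TIRAP (0.85) were higher. IRS1 (-0.99), GRB2 (-0.77) and PIK3R1 (-0.91) were lower. PTK2, the focal adhesion kinase, fell from 125 ± 9.33 to 6.97 ± 0.971 CPM (SD, n = 3), a log2 fold change of -4.16 (edgeR adjusted p = 1.58e-08). It spans 344 kb, in the longest span group, whose median was -2.09 and of which 79.2% were called lower.

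**Figure D5:**
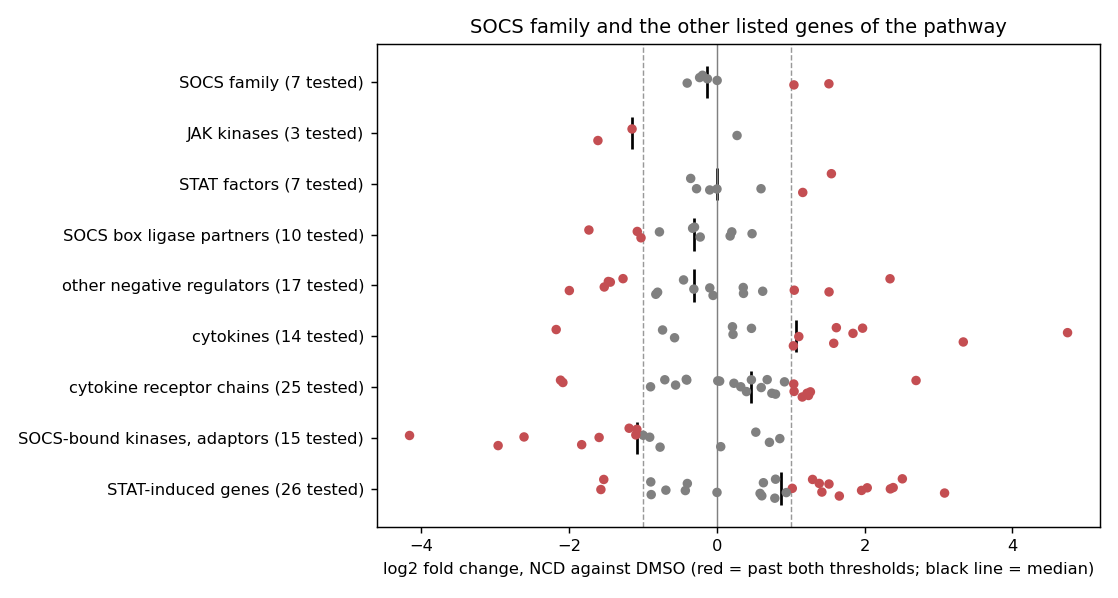
Log2 fold change of every tested gene of the SOCS family and of the 8 pathway lists, with red points past both thresholds, dashed lines at -1 and 1 and a black line at each list's median. List medians run from -1.15 for the JAK kinases to 1.07 for the cytokines, while 5 of the 7 tested SOCS genes lie between -0.40 and 0.01.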

How the data were processed

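Reads of total RNA were aligned by the authors with HISAT2, and the deposited files hold expected counts from RSEM for each Ensembl gene, not normalized, 1 file a library. The submitters' processing notes name GRCh38 (hg38). The annotation release, tool versions and strandedness are not given in the sources used here. In each file 25 lines without a gene were skipped. Of 63241 identifiers 62666 had a symbol and 58228 were in GENCODE 29, the source of positions, spans and exons. The 8 members and all lists were chosen with earlier results of these data known.

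Rounded expected counts entered edgeR 4.0.16 under R 4.3.3 (filterByExpr, TMM, glmQLFit and glmQLFTest), with p-values adjusted by the Benjamini-Hochberg method over all 15295 tested genes. Standard errors are the size of the log2 fold change over the root of F. On counts simulated for NCD against DMSO, 197 of 200 changed genes (98.5%) were recovered among 14981 tested, with 7 false calls. The changed genes were given larger log2 folds than those of SOCS7 and SOCS3 and had a higher mean level than SOCS1. They were also far fewer than the genes called in the data. This share therefore does not speak for the members. Alternatives were DESeq2 1.42.0, limma-voom (limma 3.58.1), DESeq2-type size factors in edgeR, library totals, no filter, a minimum of 10 counts per library, no threshold on the fold, 2 as prior count, a replicate block, each library left out in turn, the longest transcript as length and, chosen after seeing the data, both libraries that stand apart left out. CISH, with too few counts for the filter, was compared by its summed counts with an exact interval, with each library left out in turn, without the filter and with library totals, also chosen after seeing the data. Tables and figures used Python 3.11.15, pandas 2.3.3, numpy 2.4.6, scipy 1.17.1 and matplotlib 3.10.9. At these depths a gene with a few counts a library cannot be measured closely.

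Named are all 8 members, JAK2 and STAT3, the called gene with the largest rise and with the largest fall of each list at a mean of at least 5 CPM, the 3 genes closest in pattern to the member with the smallest p, and genes that overlap a member. Outside this rule, chosen after their values were seen, are genes that complete a count of 5 or fewer, TYK2, JAK3 and the uncalled SOCS box ligase partners. The receptor kinases and docking proteins that passed the adjusted p alone were also named after their values were seen. Protein sequences were not used here, and only the RNA-seq was analysed here.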

Additional observations from a re-analysis of the deposited data

How the results depend on the processing

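Library totals moved the split of called genes from 2067 higher and 2669 lower to 2792 and 2184, with a shift of 0.20 in the median of all genes. Under this scaling SOCS2 turned to 0.073 and SOCS5 to 0.0054. Without a fold threshold 10602 genes and 100 listed genes passed. A minimum of 10 counts per library left 1 called member, SOCS7, and no filter gave 3, adding CISH (log2 fold change 2.28, standard error 0.85, edgeR adjusted p = 0.0222). SOCS4 lay near 0 and turned to -0.02 with DESeq2 (-0.016) and with RLE size factors (-0.016), -0.03 with limma-voom (-0.033), -0.011 with a minimum of 10 counts per library, and -0.17 without both libraries that stand apart. STAT3, also near 0, was 0.20 with library totals (edgeR adjusted p = 0.0114) and turned to -0.02 with DESeq2 (-0.017) and with RLE size factors (-0.017) and to -0.013 with a minimum of 10 counts per library.

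With each library left out in turn, 4653 to 5049 genes, 1 to 2 members and 54 to 56 listed genes were called. The 1 member left without DMSO replicate 1, DMSO replicate 3 or NCD replicate 1 was SOCS1, as SOCS7 was then under the fold threshold. Ranges of log2 fold changes were 1.18 to 1.86 for SOCS1, -0.25 to 0.02 for SOCS2, -0.47 to -0.39 for SOCS3, -0.33 to 0.15 for SOCS4, -0.28 to -0.13 for SOCS5, -0.39 to -0.15 for SOCS6, 0.98 to 1.09 for SOCS7, 2.12 to 2.75 for the log2 ratio of CISH, and -0.058 to 0.023 for STAT3. SOCS4 was -0.13 without DMSO replicate 1 and -0.06 without DMSO replicate 3, and STAT3 was -0.021, -0.058, -0.035 and -0.011 without DMSO replicates 1 and 3 and NCD replicates 1 and 3.

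With the longest transcript as length, CPM per kb with DMSO and NCD were 2.34 and 2.14 for SOCS2, 9.16 and 8.01 for SOCS5, and 2.32 and 4.79 for SOCS7. Deviations of equally numbered libraries from their group means correlated at 0.216, -0.185 and 0.023, which shows no clear pairing by replicate number. The libraries that stand apart carry different numbers and could hide a pairing, so this check cannot exclude one. With the number as a block 4723 genes, 2 members and 55 listed genes were called, the same members and as many listed genes as without it, SOCS7 had a log2 fold change of 1.04, and SOCS4 turned to -0.029. Where a sign turned, the cause was not tested. Depth limits CISH and SOCS1 most, with at most 12 counts in a DMSO library.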
